A study of Mus musculus with 42 samples.

Results

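The genes described here were 10 members of the antimicrobial defence of the colon epithelium: *Reg3b*, *Reg3g*, *Ang4*, *Retnlb*, *Pla2g2a*, *Lypd8*, *Mptx1*, *Lcn2*, *Slpi* and *Plet1*. They were taken by name and read by symbol in each of 9 tables of RNA-seq values. All 10 were listed in every table and passed the filter on low values in every comparison, among 20462 genes listed in at least 1 table. The 42 libraries came from colons of mice on a C57/BL6 background that were no younger than 8 weeks, bred in separate colonies for *Mtg16*-null alleles (Mtg16-/-) and for a homozygous P209T mutation (T/T). MTG16 (encoded by *Cbfa2t3*) is a transcriptional corepressor, and P209T weakens its contact with E proteins, a class of DNA-binding factors. Each mutant was compared with WT littermates of its own colony. At baseline, crypts freed by chelation came from the 5 cm of proximal colon next to the cecum (2 Mtg16-/- and 2 WT libraries; 2 T/T and 2 WT) or from the 5 cm of distal colon next to the anus (4 Mtg16-/- and 4 WT; 4 T/T and 3 WT). Distal crypts were also taken after injury and repair, from mice given 2% dextran sulfate sodium (DSS) for 5 days and water for 4 days (4 Mtg16-/- and 3 WT; 3 T/T and 3 WT). DSS damages the colon lining and lets bacteria reach it. Distal tumors (3 T/T and 3 WT) followed an injection of 10 mg/kg azoxymethane (AOM), a carcinogen, and 3 cycles of 3% DSS for 4 days with 16 days of water. Both alleles were germline and therefore present in every cell of the mouse, and dissected tumors held stroma and immune cells as well as epithelium. In bulk RNA of this kind, fewer cells of a type and less RNA per cell cannot be told apart.

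The colon keeps bacteria away from its stem cells with mucus and with secreted proteins. REG3B and REG3G are lectins that bind the bacterial cell wall, and their genes are switched on in epithelium by interleukin-22 through STAT3 and by sensing of microbes. ANG4 is a secreted ribonuclease that kills bacteria, and RELM-beta (*Retnlb*) is a goblet cell protein induced by interleukin-4 and interleukin-13. *Pla2g2a* encodes a secreted phospholipase that attacks bacterial membranes, and this background strain carries a frameshift allele of it, so that its RNA need not give protein. LYPD8 binds flagella and holds motile bacteria off the surface, MPTX1 is a mucosal pentraxin, lipocalin 2 (*Lcn2*) withholds iron from bacteria, and SLPI inhibits serine proteases of neutrophils and has antibacterial activity. PLET1 is a surface protein of epithelial cells rather than a direct antimicrobial. *Reg3b*, *Reg3g*, *Ang4*, *Retnlb* and *Mptx1* have close paralogs, so that the assignment of their reads among copies was uncertain.

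In the mouse gene annotation used here (GRCm38.p6), *Reg3b* (ENSMUSG00000071356.7) lay at chr6:78370657-78373466 on the plus strand and *Reg3g* (ENSMUSG00000030017.2) at chr6:78466269-78468872 on the minus strand of the same chromosome. *Ang4* (ENSMUSG00000060615.5) lay at chr14:51763878-51773590 on the minus strand, and *Mptx1* (ENSMUSG00000026531.4) at chr1:174330518-174332873 on the plus strand. The sequences before their RefSeq starts are shown because these 4 genes had the largest differences between mutant and WT crypts below, because E proteins bind the E box letters CANNTG and because STAT factors bind TTCNNNGAA. The sequences are from RefSeq on GRCm38.p6, read 5′ to 3′ on the gene's own strand, with every match to either motif in capitals.
Ang4 promoter, chr14:51773591-51773840, minus strand: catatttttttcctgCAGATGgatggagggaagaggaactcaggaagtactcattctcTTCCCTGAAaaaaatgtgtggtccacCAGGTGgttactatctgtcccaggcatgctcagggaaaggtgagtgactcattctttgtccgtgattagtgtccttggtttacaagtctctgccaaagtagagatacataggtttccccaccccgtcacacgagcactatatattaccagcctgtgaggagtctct
Mptx1 promoter, chr1:174330268-174330517, plus strand: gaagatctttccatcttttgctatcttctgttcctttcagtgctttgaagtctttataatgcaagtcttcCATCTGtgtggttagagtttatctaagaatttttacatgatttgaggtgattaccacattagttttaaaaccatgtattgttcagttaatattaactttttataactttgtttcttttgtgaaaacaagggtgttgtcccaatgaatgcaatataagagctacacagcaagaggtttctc
Reg3b, before the RefSeq start, chr6:78370711-78370860, plus strand: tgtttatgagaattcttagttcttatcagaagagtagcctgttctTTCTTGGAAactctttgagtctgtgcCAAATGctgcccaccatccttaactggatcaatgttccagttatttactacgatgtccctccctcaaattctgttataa
Reg3g, before the RefSeq start, chr6:78468899-78469048, minus strand: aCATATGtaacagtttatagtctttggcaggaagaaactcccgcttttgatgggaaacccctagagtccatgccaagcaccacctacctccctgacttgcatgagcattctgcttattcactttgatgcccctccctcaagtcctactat
The *Ang4* window held 2 E boxes, 235 to 230 and 166 to 161 bases before the start, and 1 STAT motif 192 to 184 bases before it. The *Mptx1* window held 1 E box 180 to 175 bases before the start and no STAT motif. For the *Reg3* genes a stretch that ends 25 bases before the RefSeq start is shown: the *Reg3b* stretch held 1 E box and 1 STAT motif, and the *Reg3g* stretch held 1 E box and no STAT motif. The whole window of 250 bases held 2 E boxes and 1 STAT motif for *Reg3b*, and 1 and 0 for *Reg3g*. Both motifs read the same on either strand, and no matches overlapped. Over 32851 RefSeq promoter windows of 250 bases, 66.2% held CANNTG, 31.8% held it at least 2 times, and 7.02% held TTCNNNGAA. The RefSeq start of *Reg3b* lies downstream of the GENCODE start, so that its stretch is inside the gene as GENCODE draws it, and the window held 74 bases of GENCODE *Reg3b* exon. The matches are letters in a window and were not tested as binding sites. Among the other members, *Slpi*, *Lypd8* and *Plet1* also held E boxes, *Lcn2* held none, and *Retnlb* and *Pla2g2a* were without a window.

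The values are normalized counts, that is, reads per gene divided by a size factor of the library, and each of the 9 tables was scaled apart, so that levels were tested within a table only. In 38 libraries whole reads were recovered from these values, 32231389 to 74661887 per library. The null allele was visible in *Cbfa2t3* itself, at 427 to 595 in Mtg16-/- crypts against 1845 to 2519 in WT after DSS and with ranges also apart in the proximal colon (631 to 1057 against 1634 to 3221). In the distal colon at baseline the ranges met (424 to 1095 against 1027 to 1809). Epithelial genes such as *Epcam*, *Cdh1* and *Krt8* were abundant in all libraries. The library labelled distal Mtg16-/- replicate 2 went against its segment label. *Hoxd13*, a gene of the most posterior body, stood at 0 in it and at 3576 to 6654 in the other 7 distal libraries of that table. Over 10 genes high in WT distal colon, chosen for that after their values were seen, its mean log2 level was 2.66 against 11.56 to 12.28, and over 10 genes high in WT proximal colon it was 11.54 against 1.16 to 3.57. Results of the distal Mtg16-/- comparison are therefore given with and without the library labelled replicate 2.

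WT crypts answered first how the members differ along the colon. In WT mice, 8 of the 10 members had an adjusted p under 0.05 between the segments (limma on log2 of the normalized count plus 1), against 42.1% of all genes tested. *Slpi*, *Mptx1*, *Pla2g2a* and *Lypd8* were higher in distal crypts, and *Reg3b*, *Reg3g*, *Retnlb* and *Plet1* were lower there. For 7 members the ranges of the 2 segments did not overlap, against 30% of all genes. Markers of other cells moved with segment too. In distal crypts 3 of 3 tested neutrophil and 4 of 7 macrophage markers were called higher (1 macrophage marker lower), and 3 of 4 T cell, 2 of 5 plasma and B cell and 2 of 7 ileal and Paneth markers lower. Only 3 of 11 neutrophil markers passed the filter on low values. *S100a8* passed it through distal crypts alone (mean 27.4 against 2.70), and *Ly6g*, in the same list, is a gene high in WT distal crypts. Of 8 goblet cell markers 4 were called higher and 2 lower, and of 8 surface colonocyte markers 5 higher and 3 lower. Summed T cell markers were 221 to 870.4 in distal and 1511 to 2364 in proximal libraries, and summed macrophage markers 371 to 726 against 310.2 to 408. Their part in the members' differences was not tested.

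The *Reg3* lectin genes were the most proximal members. *Reg3b* stood at 217087 and 415022 in proximal WT crypts of the null colony and at 510737 and 243587 in those of the T/T colony, whereas the 7 distal WT libraries ran from 56.1 through a median of 651 to 4075. The segments were far apart, with a log2 difference of distal minus proximal of -8.63 (SE 0.95; 396-fold, limma adjusted p = 6.09e-06). *Reg3g* stood at 57992, 115268, 144277 and 78669 in proximal libraries and between 71.2 and 1552 in distal ones, with a median of 279. Its difference was -7.83 (SE 0.70; 228-fold, limma adjusted p = 8.36e-07). *Retnlb*, the goblet cell RELM, was 17.7-fold lower in distal crypts (log2 -4.14, SE 0.44), with 21656 to 37635 in proximal and 511 to 4454 in distal libraries. *Plet1* was lower by a smaller step, 48146 to 74132 against 7822 to 28572 (log2 -1.83, SE 0.31, limma adjusted p = 3.34e-04), and with the number that opens each library's name in the labels as a covariate, which is largely confounded with segment, its call was lost (log2 -1.39, adjusted p = 0.0781).

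*Slpi* and *Mptx1* had the opposite slope. *Slpi* stood at 15.9, 14.5, 4.14 and 17.4 in proximal crypts and from 3037 through a median of 4425 to 6273 in distal crypts, so that it was close to silent in 1 segment and abundant in the other (log2 8.43, SE 0.30, limma adjusted p = 1.33e-10). *Mptx1* was uneven in proximal crypts, with 2093, 15.5, 231 and 1785, and even in distal crypts, from 42370 through a median of 55284 to 79805. The difference was 7.33 on the log2 scale (SE 0.98, limma adjusted p = 4.15e-05). *Lypd8* was abundant in both segments, 283614 to 367260 in proximal and 392563 to 626868 in distal libraries, and was 1.55-fold higher in distal crypts (SE 0.15 on the log2 scale, limma adjusted p = 0.00331). *Pla2g2a* was 1.65-fold higher in distal crypts (limma adjusted p = 0.0176), with ranges that met at 573 to 1525 against 572 to 764. The calls of *Pla2g2a* and *Lypd8* were lost when the comparison was made within the null colony (log2 0.53 and 0.63, limma adjusted p = 0.278 and 0.118). That of *Lypd8* was also lost within the T/T colony (log2 0.60, limma adjusted p = 0.0518) and with the replicate block (log2 0.53, limma adjusted p = 0.0772). *Ang4* (298 to 8591 in proximal, 22.0 to 2003 in distal libraries) and *Lcn2* (87.6 to 249 against 54.1 to 238) did not pass the test. For single genes, the exact two-sided permutation test over these libraries gave its smallest possible value, 0.00606, for all 7 members whose ranges were apart. The RNA was labelled as separate replicates of a group, and the p-values measure the spread between these libraries.

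**Figure D1:**
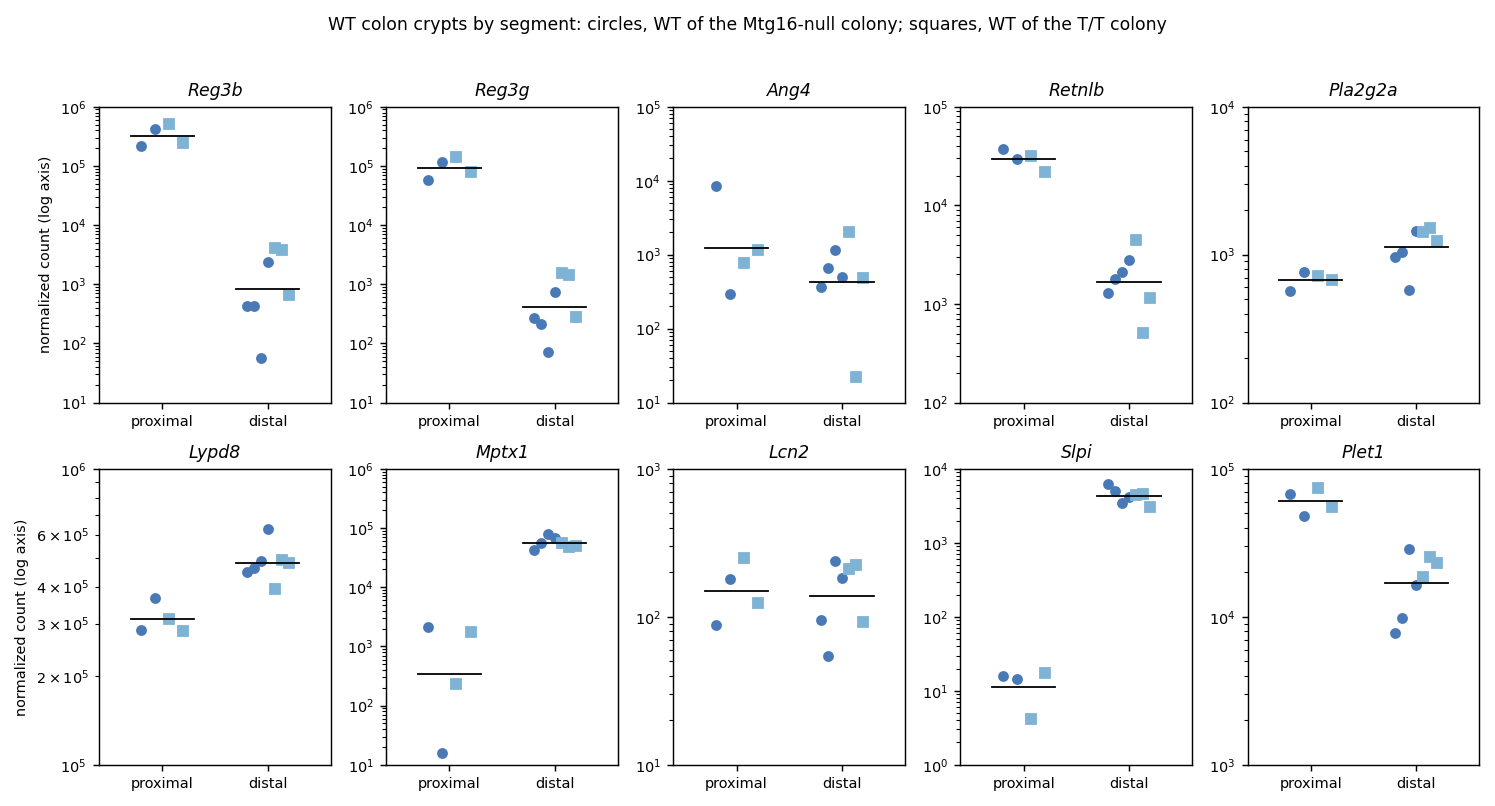
Normalized counts (log axis) of the 10 members in WT proximal and distal colon crypts, one point per library, with circles for the null colony, squares for the T/T colony and a bar at the geometric mean. *Reg3b*, *Reg3g*, *Retnlb* and *Plet1* sit lower in distal crypts and *Slpi* and *Mptx1* higher, with ranges that do not overlap.

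In the proximal colon at baseline, loss of MTG16 moved no member past the threshold: 0 of 10 by limma (0 also at an unadjusted p under 0.05), against 0.0645% of all genes. edgeR and DESeq2 were not run on this table. *Ang4* read 6821 and 11218 in Mtg16-/- crypts, but 9265 and 317 in WT, so that 1 WT library was as high as the mutants (log2 2.35, SE 1.35). *Pla2g2a* was uneven within the null group, at 196 and 5122, against 617 and 814 in WT. The only member whose ranges were apart was *Slpi* (33.5 and 37.9 against 17.2 and 15.5), against 35.6% of all genes in this comparison of 2 with 2 libraries. *Reg3b* (559104 and 302206 against 234115 and 442521) and *Lypd8* (325411 and 344317 against 308236 and 391594) overlapped. Summed plasma and B cell markers were 2074 to 2388 in Mtg16-/- and 514 to 1414 in WT libraries, and 1 goblet cell marker was the only cell type marker called. With 2 libraries a group the direction of *Ang4*, *Pla2g2a* and *Mptx1* hung on 1 library: *Ang4* was -0.08 without WT replicate 2 and 4.78 without WT replicate 1.

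In the proximal colon of T/T mice, *Ang4* was the member that rose. It read 3298 and 2757 in T/T crypts and 749.9 and 1102 in WT, 3.31-fold higher (log2 1.73, SE 0.19, limma adjusted p = 0.0436). It was 1 called member of 10, against 0.232% of all genes, and its call was lost when genes of low level were kept (limma adjusted p = 0.0867). Each of the 4 fits that left out a library kept 1 library in a group. The log2 difference of *Ang4* then ran from 1.45 to 2.01, and its call was lost in 3 of the 4 fits. Another 5 members were lower in both T/T libraries than in both WT libraries without passing the threshold. *Reg3b* read 192498 and 139636 against 496485 and 234317, and *Reg3g* 49430.3 and 48684 against 140251 and 75675. *Plet1* read 30412 and 20605 against 72063 and 53088, with *Pla2g2a* (119.6 and 239 against 698 and 649.6) and *Lcn2* (50.8 and 73.4 against 242 and 119.9) of the same order. Ranges were apart for 6 members in all, against 45.5% of all genes. Markers of ileum and Paneth cells moved with these values: their summed level was 607 to 669 in T/T and 1070.5 to 5036 in WT, 5 of the 10 markers were at 0 in both T/T libraries, and 1 of 10 was called lower. Smooth muscle (22.2 to 545 against 29.1 to 30.7; median log2 1.88) and fibroblast markers (43.4 to 424 against 41.2 to 67.8; median log2 1.20) were high in 1 of the T/T libraries, and none of them was called. The part of these markers in the result was not tested. With the replicate number as a block, *Retnlb*, *Pla2g2a* and *Plet1* were also called lower (4 members in all, against 1.1% of all genes). That fit rests on 2 pairs, too few to treat this comparison as paired.

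In the distal colon at baseline, no member passed the test in Mtg16-/- mice with all libraries (0 of 10 by limma, against 0.239% of all genes; 1 at an unadjusted p under 0.05, 0 by edgeR and 1, *Ang4*, by DESeq2, against 1.45% of all genes). None of the 10 had ranges apart, against 3.75% of all genes. Without the library labelled replicate 2 the count was also 0, against 1.04% of all genes (ranges apart for 0 members, against 6.52%). *Ang4* was the member with the steadiest excess: Mtg16-/- libraries read 1578, 16712, 1039 and 6271 and WT libraries 374, 673, 1172 and 511. The lowest Mtg16-/- value lay under the highest WT value, and the log2 difference was 2.54 (SE 0.82, adjusted p = 0.593) with and 1.80 (SE 0.59, adjusted p = 0.419) without the library labelled replicate 2. That library alone set the sign of several members. *Reg3b* stood at 157133 in it and at 858, 69.1 and 58.9 in the other null libraries, against 446, 440.0, 57.7 and 2416 in WT, so that the difference was 1.09 (SE 2.39) with and -1.41 (SE 1.26) without it. *Slpi* stood at 3.14 in it, against 4734 to 5282 in the other null libraries and 3509 to 6423 in WT. *Plet1* was low in 2 null libraries (1152 and 1621) and within the WT range of 8009 to 29371 in the other two (16467 and 14388), the log2 difference being -1.63 (SE 0.92) with and -2.24 (SE 0.81) without that library.

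In the distal colon of T/T mice, both *Reg3* genes were lower than in every WT littermate. *Reg3b* read 31.3, 30.6, 297 and 233 in T/T and 3827, 3550.1 and 601 in WT crypts. The groups did not overlap, although 1 WT library was near the T/T range, and the log2 difference was -4.45 (SE 1.05, limma adjusted p = 0.748). *Reg3g* read 47.4, 33.7, 198 and 141 against 1457, 1344 and 258 (log2 -3.26, SE 0.82). *Plet1* (2763 to 11743 against 17435 to 23681; log2 -1.96, SE 0.44) and *Pla2g2a* (185 to 798 against 1145 to 1427; log2 -1.56, SE 0.45) had ranges apart as well. These 4 members with ranges apart compare with 7.7% of all genes, and 0 of 10 passed the threshold by limma, against 0.0369% of all genes. An unadjusted p under 0.05 was found for 4 members, edgeR called 0, and DESeq2 on recovered reads called 3 (*Reg3b*, *Reg3g* and *Plet1*), against 0.392% of all genes. *Ang4* was even in T/T libraries (1499, 1577, 823 and 1741) and scattered in WT (1881, 20.6 and 444). *Mptx1* (31180.4 to 65969 against 44252 to 51918) and *Lypd8* (351434 to 425875 against 368667 to 460121) overlapped. No marker of another cell type was called by limma in this comparison. Summed goblet cell markers were 618503 to 731693 in T/T and 497899 to 596614 in WT libraries. The median log2 difference of the 8 tested was -0.16, against the direction of the sum, and their part in the result was not tested.

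**Figure D2:**
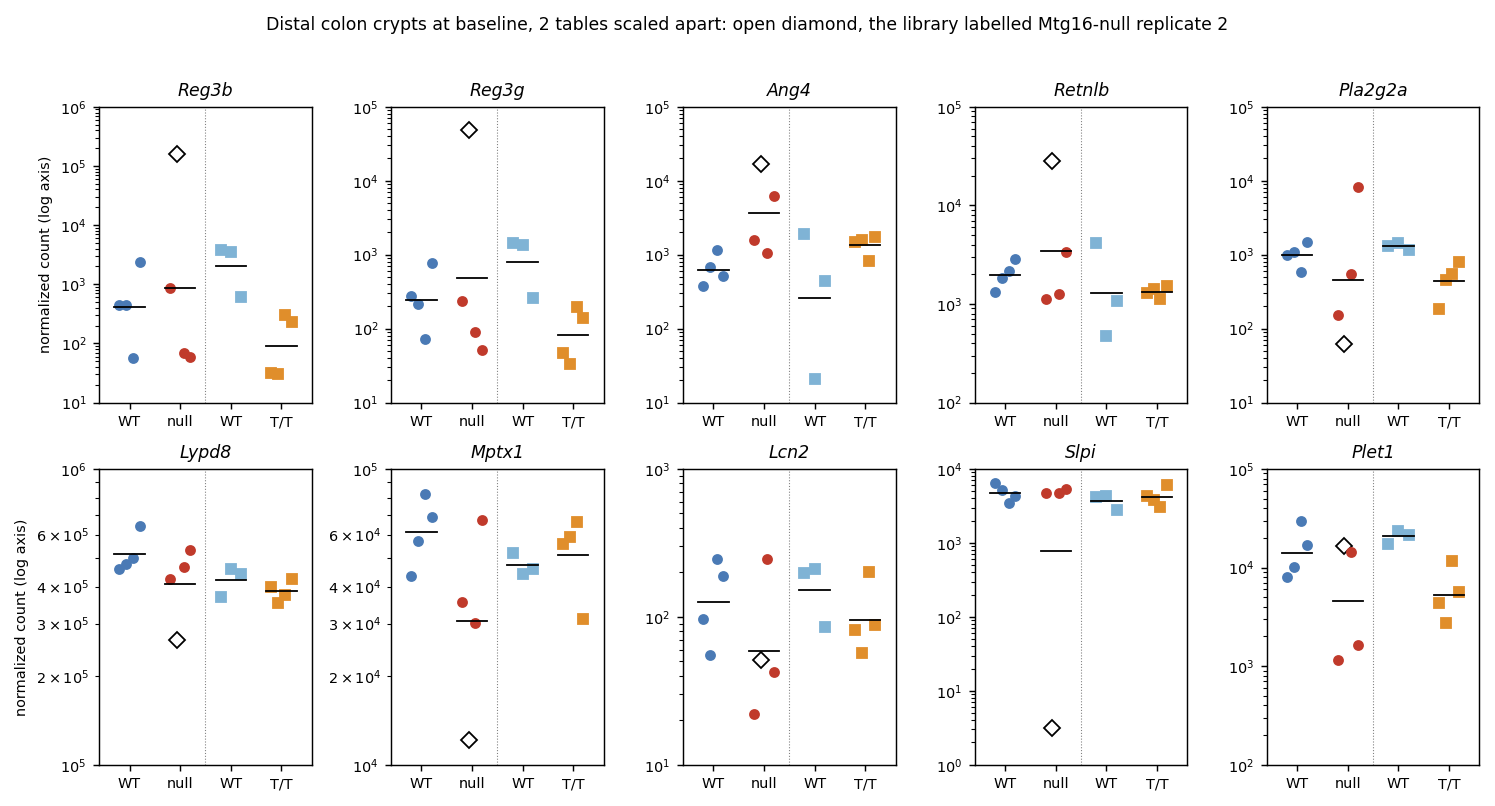
Normalized counts (log axis) of the 10 members in distal crypts at baseline, WT and Mtg16-/- to the left of the dotted line and WT and T/T to the right, in tables scaled apart, with a bar at the geometric mean. The open diamond, the library labelled Mtg16-/- replicate 2, stands at 157133 for *Reg3b* and 3.14 for *Slpi*, and the 4 T/T libraries sit below the 3 WT libraries for *Reg3b*, *Reg3g*, *Pla2g2a* and *Plet1*.

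The genotype effect in the distal colon was then compared between the alleles. The difference of Mtg16-/- and T/T effects passed for 0 of 10 members (limma effects and their errors; 0 at an unadjusted p under 0.05), against 0% of all genes. For *Reg3b* it was 5.54 (SE 2.61) with the library labelled replicate 2 and 3.04 (SE 1.64) without it, where 0 members passed as well, against 0.0149% of all genes. Effects did not differ between segments at this threshold either: 0 members for Mtg16-/- (0 unadjusted) against 0.0372% of all genes, 0 without the library labelled replicate 2 (1 unadjusted, *Plet1*) against 0.0677%, and 0 members for T/T against 0.0229%. For T/T, *Reg3b*, *Reg3g* and *Mptx1* had an unadjusted p under 0.05 in that test, with *Reg3b* 3.40 higher on the log2 scale in the proximal than in the distal effect (SE 1.11).

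After DSS and repair, WT distal crypts of the T/T colony held less *Mptx1*. *Mptx1* read 17607, 14814 and 23976 after DSS and 60319.7, 50779 and 53016 at baseline, 2.96-fold lower (log2 -1.57, SE 0.19, limma adjusted p = 0.00803). It was 1 called member of 10, against 35.6% of all genes tested. *Reg3b* read 17491, 18539.8 and 4542 after DSS and 4446, 4074 and 694 at baseline. All 3 values after DSS were above all 3 at baseline, the nearest pair by little (log2 2.29, SE 0.86, limma adjusted p = 0.075). *Lypd8* (540275, 549043 and 668407 against 428324, 527989 and 511253) and *Pla2g2a* (2218, 2238 and 35817 against 1544, 1638 and 1323) had ranges apart as well, with 1 *Pla2g2a* library far above the rest. Ranges were apart for 4 members, against 55.3% of all genes. *Retnlb* (10797, 9866 and 2573 against 4859.8, 549 and 1235) and *Reg3g* (4610.4, 3783 and 1419.8 against 1693, 1542 and 298) overlapped at their edges. The names of libraries after DSS and at baseline open with different numbers in the labels, whose meaning the labels do not give, so that whatever this number marks and DSS cannot be told apart. WT replicate 3 after DSS stood apart from the other 2 in *Reg3b*, *Reg3g*, *Retnlb*, *Ang4*, *Lcn2*, *Slpi*, *Plet1* and *Pla2g2a*. Without it, *Reg3b*, *Reg3g*, *Retnlb*, *Pla2g2a* and *Slpi* were called higher and *Mptx1* lower (6 members, against 66.9% of all genes). Without WT baseline replicate 2, 0 members were called by limma (*Mptx1* adjusted p = 0.0534, 0.00739% of all genes). DESeq2 called 2 members, against 44.1% of all genes, and the fit with a replicate block 3, against 19.7%. Summed goblet cell markers were 1097000 to 1230460 after DSS and 571339 to 693157 at baseline, and 6 of 8 tested were called higher. Also called higher were 2 of 3 fibroblast markers (summed 119.9 to 281 against 40.0 to 88.6), 2 of 7 macrophage markers (1 lower), 1 of 5 neutrophil, 1 of 4 ileal and Paneth and 3 of 7 epithelial markers. Rescaling libraries to equal upper quartiles moved the median of all genes by 0.14 on the log2 scale, and *Mptx1* was called lower under it. Removal of a transcript length trend changed the calls over all genes from 1897 higher and 2936 lower to 3034 higher and 2904 lower. The 10 genes high in WT distal colon had a mean log2 level of 11.28 to 11.84 after DSS and 11.98 to 12.38 at baseline, and the 10 genes high in WT proximal colon 3.10 to 3.71 against 1.10 to 1.51. The part of these shifts in the members' differences was not tested.

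After DSS, Mtg16-/- crypts held much more *Ang4* and much less *Mptx1* than WT crypts of the same colony. *Ang4* read 4294, 5372, 5284 and 7791 in Mtg16-/- and 293, 127 and 96.7 in WT libraries. Every null library was more than 10 times every WT library, and the log2 difference was 5.17 (SE 0.35; 36.0-fold, limma adjusted p = 0.00113). *Mptx1* read 2495, 1303, 4010.5 and 2344 against 39232, 27782 and 27798. The groups were again far apart, with a log2 difference of -3.73 (SE 0.32; 13.3-fold lower, limma adjusted p = 0.00292). These were 2 called members of 10, against 0.629% of all genes, and both calls held in all 14 alternatives run, the adjusted p reaching at most 0.0116 for *Ang4* and 0.0179 for *Mptx1*. The exact two-sided permutation test of 4 against 3 libraries cannot go below 0.0571, the value it gave for both.

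The *Reg3* genes and *Retnlb* stood higher in most Mtg16-/- libraries after DSS without passing the threshold. *Reg3b* read 75138, 21777, 54833 and 15085 against 6605, 17191 and 6316 (log2 1.93, SE 0.56, limma adjusted p = 0.164). Of the null libraries 3 were above every WT library and the fourth was between them. *Retnlb* read 29857, 10326, 19104 and 29311 against 10989.6, 6470.1 and 2776 (log2 1.81, SE 0.48, limma adjusted p = 0.128), and *Reg3g* 16098, 6511, 15437 and 3153 against 2019.5, 6185 and 2504 (log2 1.42, SE 0.58). *Slpi* was lower in each null library, 7298, 5884, 4508 and 6107 against 9158, 8102 and 8391 (log2 -0.54, SE 0.17). With *Ang4* and *Mptx1*, 3 members had ranges apart, against 11.4% of all genes. The labels name no pairs, but same-numbered libraries deviated together in this table. Mtg16-/- replicate 4 has no same-numbered WT library and adds nothing to the effect in a fit with the replicate number as a block. In that fit 6 members were called, against 8.78% of all genes. They were *Ang4* (log2 5.01), *Reg3b* (2.32, adjusted p = 0.0222), *Reg3g* (1.90, adjusted p = 0.0357) and *Retnlb* (1.63, adjusted p = 0.0145) higher, and *Mptx1* (-3.73) and *Slpi* (-0.56, adjusted p = 0.0271) lower. *Pla2g2a*, *Lypd8*, *Lcn2* and *Plet1* overlapped between the genotypes, *Lcn2* reading 1545, 293, 919 and 220.0 against 567, 631 and 261.

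Markers of other cells moved with the Mtg16-/- result after DSS. Summed macrophage markers were 2885 to 8697 in Mtg16-/- and 603 to 1416 in WT libraries, with 1 of 7 called higher and none at 0 in a whole group. Summed neutrophil markers without *Ly6g*, a gene high in WT distal crypts and left out after the values were seen, were 4796 to 17706 against 1403 to 3180 (8393 to 24177 against 6482 to 9278 with it), with 2 of 9 tested called higher, and *Camp*, *Mpo* and *Elane* at 0 in all WT libraries. The 10 genes high in WT distal colon had a mean log2 level of 10.04 to 10.77 in Mtg16-/- and 11.51 to 12.06 in WT libraries, and the 10 genes high in WT proximal colon 5.46 to 6.57 against 3.69 to 4.62. With the replicate block 7 of 9 neutrophil and 6 of 7 macrophage markers were called higher, as were 3 of 5 plasma and B cell markers (summed 564 to 1863 against 331 to 761), 1 of 4 T cell and 1 of 3 fibroblast markers. Of 8 goblet cell markers, 1 was called lower without the block, and 1 higher and 3 lower with it. Of 4 tested ileal and Paneth markers, 1 was called lower without the block and 2 with it. Of 8 surface colonocyte markers, 1 was called higher without the block, and 1 higher and 1 lower with it. The part of these shifts in the members' differences was not tested.

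In T/T mice after DSS, *Mptx1* was lower and *Ang4* higher in every library than in WT, but limma called 0 of all genes tested (1197 at an unadjusted p under 0.05), as did edgeR, while DESeq2 called 334. *Mptx1* read 512, 3522 and 632 in T/T and 19139, 15972 and 25315 in WT libraries, 18.9-fold lower (log2 -4.24, SE 0.71, limma adjusted p = 0.170). *Ang4* read 4336, 2428 and 1434 against 466, 755 and 35.3 (log2 3.40, SE 1.12, limma adjusted p = 0.431). For both, every T/T library lay outside the WT range. *Reg3b* (107528, 36097 and 43552 against 19014, 19990.4 and 4796), *Reg3g* (29694, 11752 and 6363 against 5012, 4079 and 1499) and *Retnlb* (32587, 11984 and 22559 against 11737, 10638 and 2716) were also above all WT libraries. *Lypd8* was below them, with 340514, 474686 and 481749 against 587294, 592000 and 705737. Ranges were apart for these 6 members, against 13.7% of all genes. limma called 0 of 10 members, against 0% of all genes, with 6 at an unadjusted p under 0.05. edgeR called 0 members, and DESeq2 called 3 (*Reg3b*, *Reg3g* and *Mptx1*), against 2.45% of all genes. Without T/T replicate 2, limma called *Mptx1* (log2 -5.12, adjusted p = 0.00621), against 0.0222% of all genes. Here too the 10 genes high in WT distal colon were lower in T/T libraries (mean log2 level 9.25 to 10.80 against 11.39 to 11.92) and the 10 high in WT proximal colon were higher (5.08 to 6.14 against 3.16 to 3.79). Summed goblet cell markers were 695022 to 797970 in T/T and 1158260 to 1337540 in WT libraries, and summed plasma and B cell markers 723 to 769.7 against 219 to 391. Summed ileal and Paneth markers were 669 to 1065 against 1148 to 1208. The summed neutrophil markers (5797 to 8613 against 7769 to 12315) were mostly *Ly6g*, which WT distal crypts held at a high level also at baseline. Without *Ly6g* the sum was 1587 to 2361 in T/T and 492 to 956 in WT libraries, with *S100a8* at 519 to 713 against 47.9 to 281, and limma called none of the markers. The part of these markers in the members' differences was not tested.

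**Figure D3:**
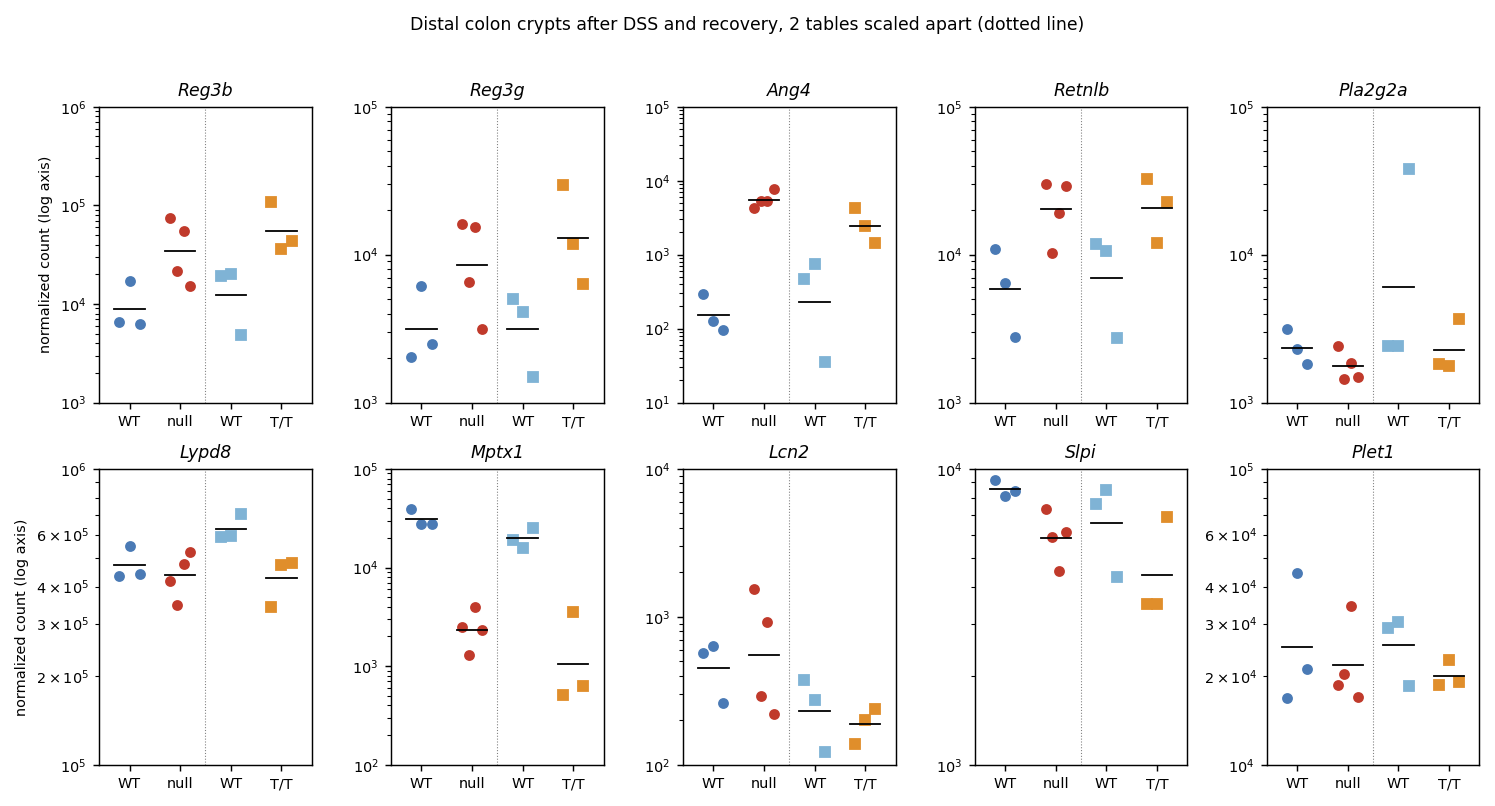
Normalized counts (log axis) of the 10 members in distal crypts after DSS and recovery, WT and Mtg16-/- to the left of the dotted line and WT and T/T to the right, in tables scaled apart, with a bar at the geometric mean. *Ang4* is higher and *Mptx1* lower in every mutant library than in every WT library of the same table.

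Whether the alleles differed after DSS was tested on the effects themselves. With the Mtg16-/- effect taken without the replicate block, the Mtg16-/- minus T/T difference passed for 0 of 10 members (0 at an unadjusted p under 0.05), against 0.0148% of all genes. It was 1.77 for *Ang4* (SE 1.17) and 0.51 for *Mptx1* (SE 0.78). With the block, a choice made after the values were seen, it also passed for 0 members (0 unadjusted), against 0.177% of all genes, at 1.60 for *Ang4* (SE 1.16) and 0.51 for *Mptx1* (SE 0.75).

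The T/T effect on *Reg3b* had opposite signs at baseline and after DSS. It was -4.45 at baseline and 2.18 after DSS, a difference of 6.63 (SE 1.24, adjusted p = 0.0430 from the limma effects of both tables). Neither effect passed the threshold alone (limma adjusted p = 0.748 and 0.385). For *Mptx1* the T/T effect was 0.11 at baseline and -4.24 after DSS, a difference of -4.35 (SE 0.75, adjusted p = 0.0382). Its effects did not pass alone either (limma adjusted p = 0.933 and 0.170). *Reg3g* had a difference of 5.32 (SE 1.05) that missed the threshold (adjusted p = 0.0546). Library names open with other numbers after DSS than at baseline for either allele, so DSS and whatever this number marks cannot be told apart. The 2 called members compare with 0.234% of all genes. Both calls were close to the threshold: 9 of 13 fits that left out a library lost *Reg3b* (adjusted p up to 0.171) and 10 of 13 lost *Mptx1* (up to 0.190), with the differences staying at 5.96 to 7.50 and -5.23 to -3.84. For Mtg16-/-, 0 members passed (2, *Ang4* and *Mptx1*, at an unadjusted p under 0.05) against 0.00738% of all genes. Without the library labelled distal Mtg16-/- replicate 2, *Ang4* (3.37, adjusted p = 0.0397) and *Mptx1* (-3.18, adjusted p = 0.00541) passed, against 0.363% of all genes. These Mtg16-/- effects after DSS were taken without the replicate block. With it, *Mptx1* passed (-2.73, limma errors, adjusted p = 0.0277; 1 member, against 0.347% of all genes), and with the block and without that library *Ang4* (3.20, adjusted p = 0.0150) and *Mptx1* (-3.18, adjusted p = 2.47e-04) passed, against 2.06%.

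In AOM/DSS tumors, *Ang4* was higher and *Reg3b* and *Slpi* lower in every T/T than in every WT library. *Ang4* read 22138, 44671 and 12035 in T/T and 6155, 7985 and 3925 in WT tumors (log2 1.98, SE 0.46, limma adjusted p = 0.998). *Reg3b* read 2026, 1126 and 1299 against 2893, 3597 and 4589.8 (log2 -1.34, SE 0.24, limma adjusted p = 0.682), and *Slpi* 7268, 9514 and 4739 against 11319.5, 9879 and 11908 (log2 -0.67, SE 0.23). Ranges were apart for these 3 members, against 5.52% of all genes. limma called 0 members, against 0% of all genes, with 4 at an unadjusted p under 0.05. edgeR called 0 members and DESeq2 1, *Reg3b*, against 0.151% of all genes. Over all genes limma called 0 (392 at an unadjusted p under 0.05), edgeR 0 and DESeq2 24. *Mptx1* was spread widely within both groups, 7626, 22929 and 1527 against 3023, 140.0 and 172, with the highest WT tumor above the lowest T/T tumor (log2 3.94, SE 1.32). *Lypd8* (214457 to 282257 against 221186 to 252753), *Lcn2* (4897 to 6550.1 against 5884 to 7869) and *Plet1* (5549.6 to 17237 against 10362 to 15023) overlapped. Summed goblet cell markers were 166146 to 439752 in T/T and 100532 to 254927 in WT tumors, with a median log2 difference of 0.0025 over the 8 tested. Of the ileal and Paneth markers, *Mptx2* was 312 to 766 in T/T and 31.7 to 68.3 in WT tumors and *Defa24* 5055 to 7856 against 2180 to 5233, while the sum over the list was 64476 to 113188 against 50886 to 116204 and 0 of 8 tested were called. Their part in the members' differences was not tested.

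Across the 7 mutant comparisons, which share no library, *Ang4* was higher in the mutant in 7 of 7, by 1.73 to 5.17 on the log2 scale, and was called in 2. Without proximal WT replicate 2 of the null colony it was higher in 6 of 7 (-0.083 in Mtg16-/- proximal crypts), and its call in T/T proximal crypts was lost in 3 of 4 fits that left out a library. *Plet1* was lower in 7 of 7, by -1.96 to -0.21, and was called by limma in 0 without a replicate block. With the block it was called in T/T proximal crypts (limma adjusted p = 0.0102, against 0.108 without it). There 2 pairs are too few to treat the libraries as paired. *Mptx1* was lower in 4 and higher in 3, and *Reg3b* higher in 4 and lower in 3, so that the direction of these genes differed between settings. With the distal Mtg16-/- effect taken without the library labelled replicate 2, *Reg3b* was higher in 3 and lower in 4, and *Plet1* ran from -2.24 to -0.21. *Lypd8* stayed between -0.55 and 0.09 in all 7.

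**Figure D4:**
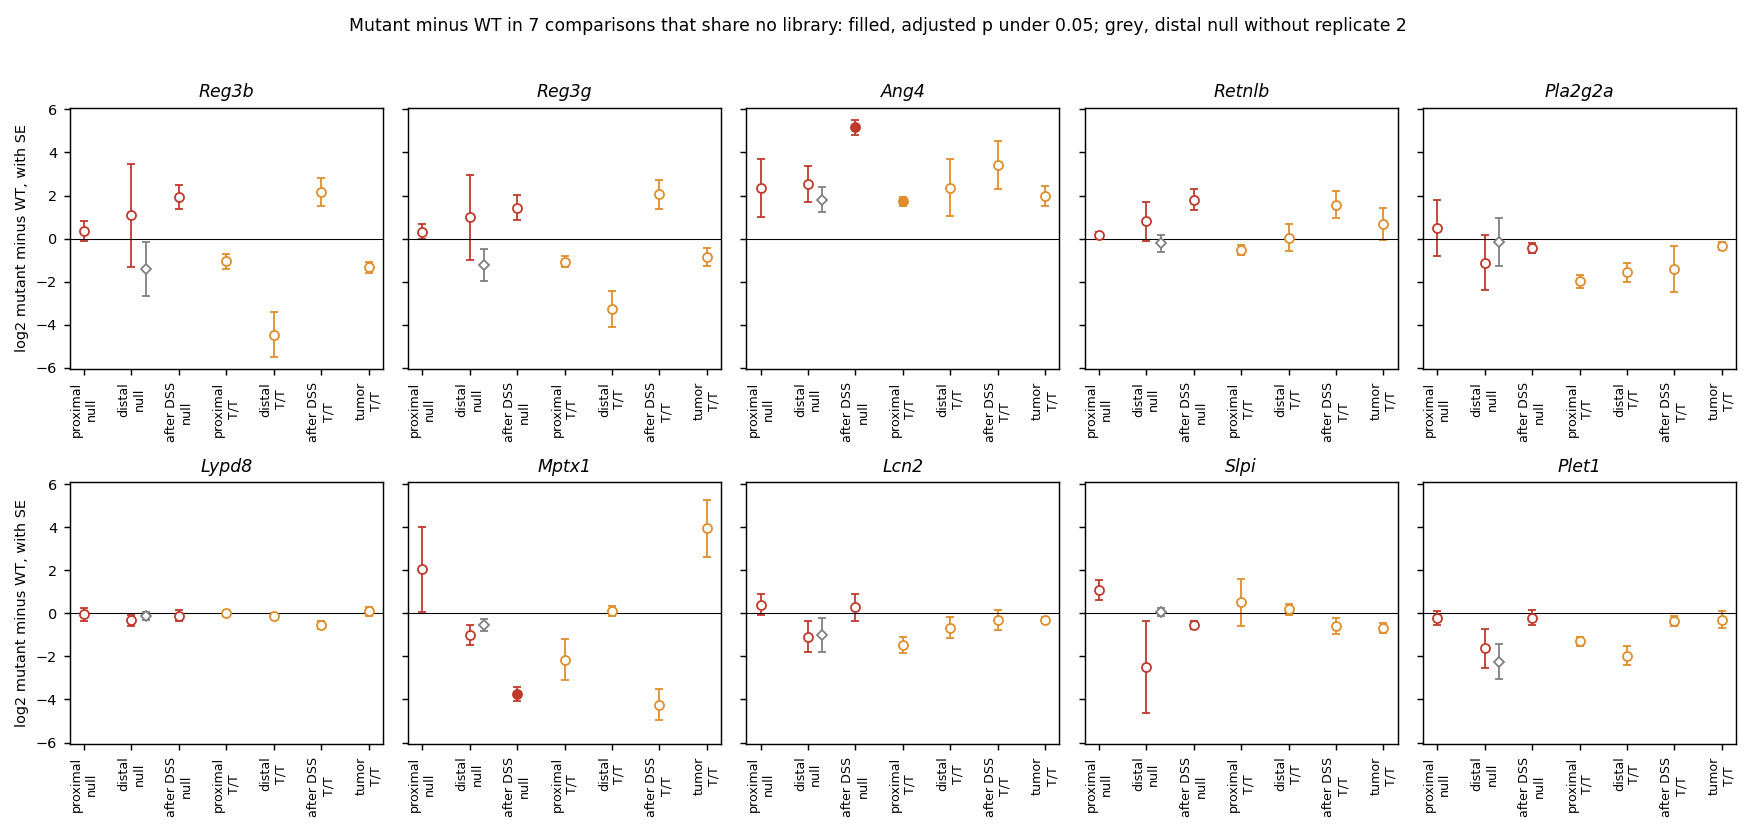
Log2 difference of mutant minus WT with its SE for the 10 members in 7 comparisons, red for Mtg16-/- and orange for T/T, with filled points at an adjusted p under 0.05 and a grey diamond for the distal null comparison without the library labelled replicate 2. All 7 *Ang4* points are above 0 and all 7 *Plet1* points below it.

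Levels in RPKM, which divide recovered reads by library total and by the length of the longest coding transcript and can be compared between genes, ranked the members differently in each place. In WT proximal crypts *Reg3b* (mean 9618, SD 3656, n = 4) and *Lypd8* (5600, SD 542) led, their ranges just apart (6393 to 14025 and 5115 to 6374), and *Slpi* was last at 0.327 (SD 0.155). In WT distal crypts *Lypd8* led alone at 8935 (SD 1071, n = 7), ahead of *Mptx1* at 1602 (SD 369), and *Lcn2* was last at 3.88 (SD 1.90). *Reg3g* (19.3, SD 18.6) and *Ang4* (23.9, SD 21.9) stood next above it with overlapping ranges. In WT distal crypts after DSS (n = 6) mean RPKM was 292 for *Reg3b* (SD 169.7), 598 for *Mptx1* (SD 169) and 7.41 for *Lcn2* (SD 3.66). In WT tumors *Lypd8* led at 3918 (SD 207, n = 3) and *Mptx1* was last at 28.6 (SD 42.7), while *Lcn2* stood at 152 (SD 24.3). The same quantity for *Ang4* had means of 86.8 in WT proximal crypts (SD 129), 23.9 in WT distal crypts, 198 in Mtg16-/- distal crypts (SD 225, and 91.4 with SD 87.5 without the library labelled replicate 2), 50.1 in T/T distal crypts, 7.73 in WT crypts after DSS, 143 in Mtg16-/- and 79.7 in T/T crypts after DSS, 175 in WT tumors and 766 in T/T tumors. These levels come from separate tables and from crypts and whole tumors, and no test was made between them.

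**Figure D5:**
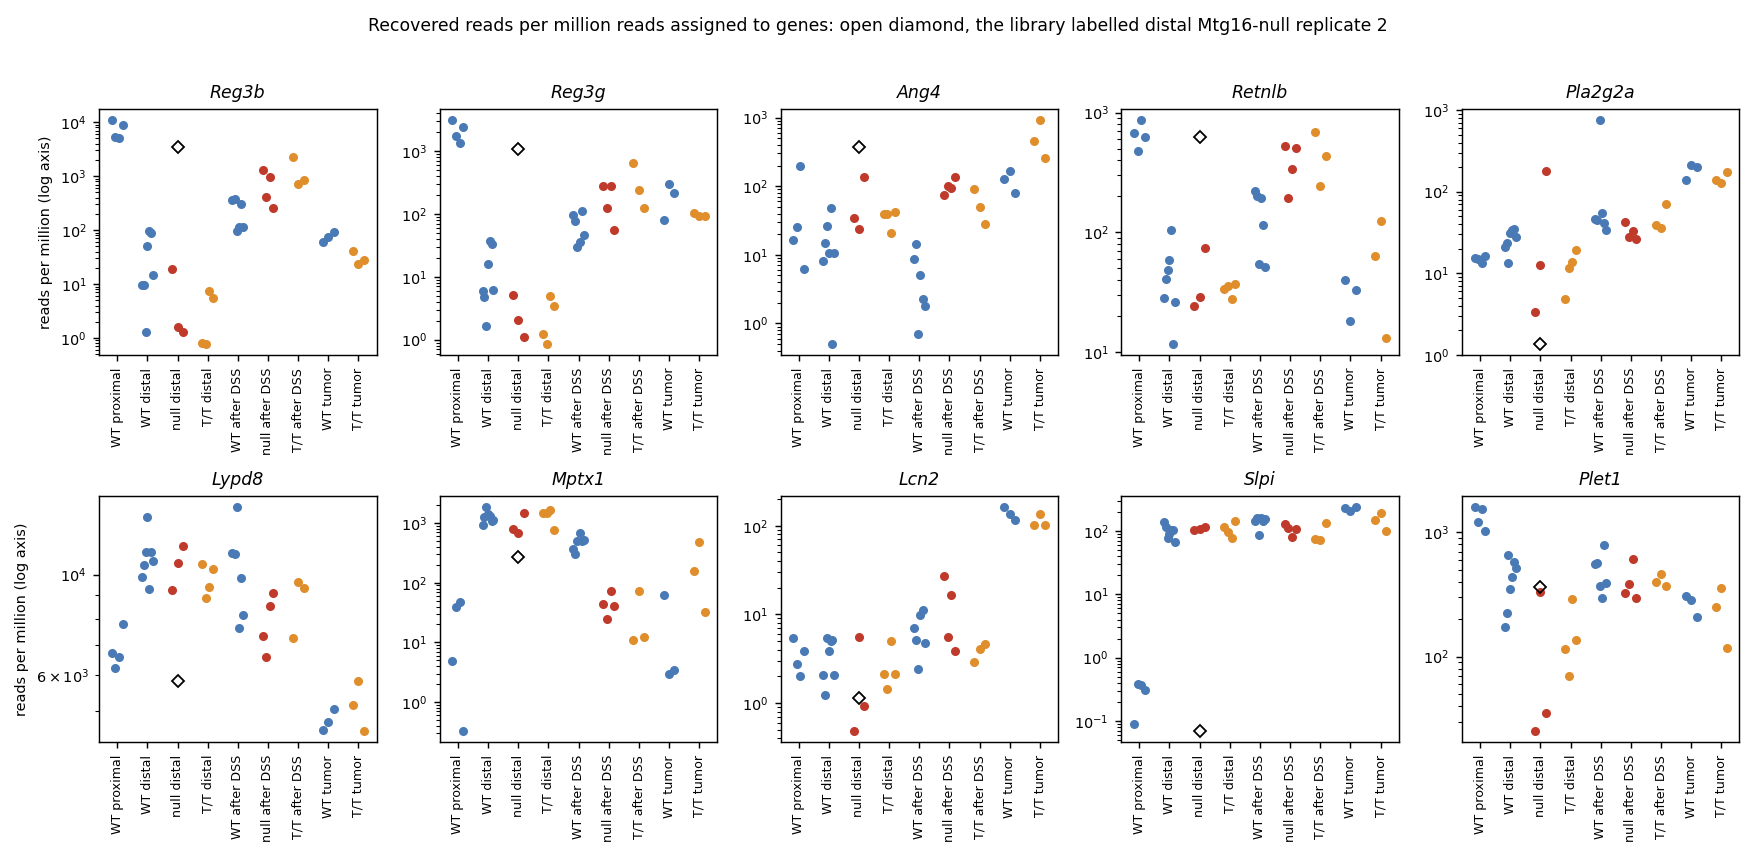
Recovered reads in RPM (log axis) for the 10 members in the 38 libraries with recovered reads, one point per library, blue for WT, red for Mtg16-/- and orange for T/T. Tumors hold the highest *Lcn2*, WT proximal crypts the highest *Reg3b* of the WT groups and T/T tumors the highest mean *Ang4*, and the open diamond is the library labelled distal Mtg16-/- replicate 2.

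Other genes of the same pathways were read from 4 lists, and the defence list shares genes with the cell type marker lists used above. Of 42 other epithelial defence genes, 26 were tested between WT segments, and 10 were higher and 9 lower in distal crypts, beside 42.1% of all genes called in that table. *Wfdc2*, a protease inhibitor related to SLPI, ran from 5570 to 9382 in distal and 800 to 1267 in proximal libraries, whereas *Reg3a* (0 to 2.09 against 43.0 to 72.4) and *Saa3*, a serum amyloid gene (18.5 to 64.9 against 538 to 969), were lower there. *S100a8* and *Ltf* were also higher and *Itln1* lower. Of the interleukin-22 and STAT3 list, 5 of 15 tested genes were higher in distal crypts, among them the receptor gene *Il22ra1* (1475 to 1859 against 909 to 1243), *Il18* and *Il6ra*, and 5 were lower, among them *Pim1*, *Socs1* and *Fut2*. Of 26 tested genes of the Toll-like receptor and NF-kB list, 3 were higher (*Tnfaip3*, *Nod1* and *Tirap*) and 6 lower, including *Tlr2* (1023 to 1293 against 3489 to 4625), *Tlr5* and *Il1r1*. Of 7 in the interleukin-4 and STAT6 list, 2 were higher (*Il33* and *Il13ra1*) and 4 lower (including *Pou2f3* and *Il4ra*).

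In WT crypts after DSS, 7 of 27 tested defence genes were higher and 1 lower, beside 35.6% of all genes called in that table, a share that none of the 4 lists but the STAT3 list passed. *Fcgbp* (553145 to 733906 against 289088 to 335634) and *Zg16* (171014 to 209928 against 89485 to 99716), both mucus proteins of goblet cells, rose with *S100a9*, and *Sprr2a1* fell. In the STAT3 list 5 of 15 were higher (*Il6ra*, *Fut2* and *Bcl3* the most) and 2 lower (*Osmr* and *Il18*). In the Toll-like receptor list 4 of 27 were higher (*Nfkb2*, *Rela* and *Ticam1* the most) and 5 lower, with *Tlr4* falling from 1174 to 1642 at baseline to 71.3 to 366 after DSS and *Tlr3* and *Rel* also lower. In the STAT6 list *Il4ra* was higher and *Il13ra1* lower.

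The mutant comparisons gave few calls in these lists without a replicate block. *Tff3*, the trefoil factor of goblet cells, was higher in Mtg16-/- proximal crypts (58837 and 69247 against 18343 and 22518) and in T/T proximal crypts (27608 and 29382 against 14309 and 15785), and *Reg4* was lower in the former (5534 and 6046 against 16340 and 18856). Over the 8 goblet cell markers tested, the median log2 difference was -0.50 in Mtg16-/- and -0.30 in T/T proximal crypts. Among these markers *Tff3* was the only 1 called in either. In Mtg16-/- distal crypts without the library labelled replicate 2, *Tff3* (47803 to 58636 against 28629 to 38548) was higher and *Zg16* (39466 to 55077 against 86656 to 166438) was lower. After DSS, Mtg16-/- crypts had higher *Lyz2*, the lysozyme of macrophages (1373 to 4790 against 108 to 519.7), *Camp*, *Chil3* and *Il4ra* (4959 to 6710.1 against 2607 to 3184), and lower *Dclk1*, a tuft cell marker (40.8 to 50.6 against 172 to 275). Without a replicate block, limma called 0 genes of the interleukin-22 and STAT3 list and of the Toll-like receptor list in the mutant comparisons. With the block after DSS, which called 8.78% of all genes in Mtg16-/- crypts, 1 of 15 genes of the former (*Socs1*, 1018 to 1484 against 543 to 787, log2 0.94, limma adjusted p = 0.0119) was higher, and of 27 in the latter *Tlr9* was higher and *Tlr1* lower. Of 29 defence genes, 9 were then higher (among them *Camp*, *Retnlg* and *Lyz2*) and 5 lower, among them the goblet cell gene *Clca1* (28675 to 74377 against 118835 to 210339) and *Wfdc2* (2557 to 5182 against 7137 to 11955). *Camp* and *Retnlg* are also in the neutrophil list and *Lyz2* is also in the macrophage list, so that they are counted in both places. In the interleukin-4, interleukin-13 and STAT6 list, *Chil3* and *Il4ra* were among the genes then called higher, and *Dclk1* was lower. In T/T distal crypts at baseline, in T/T crypts after DSS and in T/T tumors limma called 0 genes of the 4 lists.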

How the data were processed

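Bulk RNA-seq was made from poly(A) RNA of 42 libraries in 14 groups. Per the submitters' processing notes, the tools were fastp 0.20.0, Salmon 1.3.0, R 3.6.3 and DESeq2 1.26.0. The authors deposited 9 tables, 1 for each comparison, whose signal values are counts per gene normalized by the DESeq2 size factors of that table. The authors' fold changes and p-values in these tables hold their own comparisons and were not used. In 38 libraries every value checked (up to 1000 reads) was a whole read within 0.1 read (100%). The 4 proximal mutant libraries gave no read counts, and their normalized totals were 44178091 to 49481757.

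Each comparison was tested within its table with limma 3.58.1 (R 4.3.3) on log2 of the normalized count plus 1, for genes with a mean of at least 10, with Benjamini-Hochberg adjustment over all genes tested and a threshold of 0.05, after the scripts were tested on simulated data. Differences between effects used the moderated errors of 2 tables that share no library. Exact two-sided permutation tests (SciPy 1.17.1) were made for single members. The named genes were the 10 members in every comparison and, from each list, at most 3 called genes per comparison and direction with the largest change, of which 1 gene is not reported here. The members and lists were chosen with earlier results of these data known. Alternatives were a pseudocount of 0.1, no filter, upper quartile scaling, leaving out each library, the replicate block and the colony or the number that opens a library's name in the labels. Chosen after seeing the data were count tests of the recovered reads (edgeR 4.0.16, quasi-likelihood, and DESeq2 1.42.0), removal of a transcript length trend, and the replicate block in differences between effects. After DSS, same-numbered Mtg16-/- and WT libraries deviated together (correlations 0.554, 0.460 and 0.317) and were for that reason treated as pairs, which the labels do not name. Same-numbered T/T and WT libraries after DSS did not deviate together (correlations -0.029, -0.708 and -0.766). Promoter windows were taken from RefSeq (GRCm38.p6), 250 bases before each start.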

Additional observations from a re-analysis of the deposited data

Results flagged for a closer look

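Of 60 sets of values (a member in a group of 4 to 10 libraries), 3 held a library far from the others by Dixon's gap test, where chance gives about 5%. *Ang4* stood at 22.0 in distal WT replicate 2 of the T/T colony and at 365 to 2003 in the other distal WT libraries. *Slpi* stood at 4.14 in proximal WT replicate 1 of the T/T colony and at 14.5 to 17.4 in the other proximal WT libraries. *Slpi* stood at 3.14 in the library labelled distal Mtg16-/- replicate 2, whose segment markers went against its label, and at 4734 to 5282 in the other 3.

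For 2 members the T/T effect differed between DSS and baseline by a test of the difference. *Reg3b* differed by 6.63 on the log2 scale (2.18 after DSS, -4.45 at baseline, limma errors, adjusted p = 0.0430), and *Mptx1* by -4.35 (-4.24 and 0.11, adjusted p = 0.0382). Of 13 fits that left out a library, only 4 kept the call of *Reg3b* and 3 that of *Mptx1*.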

How the results depend on the processing

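Counts of called members stayed within 1.5 times the reported count in 72 of 82 settings other than those that left out single libraries. DESeq2 on recovered reads called 1 member in Mtg16-/- distal crypts, 3 in T/T distal crypts, 2 in WT crypts after DSS, 3 in T/T crypts after DSS and 1 in tumors. Keeping genes of low level gave 0 members in T/T proximal crypts. The replicate block gave 4 members there, 3 in WT crypts after DSS and 6 in Mtg16-/- crypts after DSS. Only the last table was treated as paired, since 2 pairs are too few in the first and same-numbered libraries did not deviate together in the second, and in the other comparisons the replicate block did not move a count of members by over 1.5 times. With the block after DSS, 1 member differed between DSS and baseline in Mtg16-/- mice, and 2 when the library labelled distal Mtg16-/- replicate 2 was also left out, where the reported count was 0. Among libraries whose names open with 4149 in the labels, the distal Mtg16-/- effect was -2.54 for *Reg3b*, -1.79 for *Reg3g*, -0.26 for *Retnlb*, 1.17 for *Pla2g2a* and 0.37 for *Slpi*, with signs opposite to those reported, and this setting leaves out the library labelled replicate 2. Over all libraries of that comparison, *Pla2g2a* was 1.11 by edgeR and 1.11 by DESeq2 on recovered reads, also opposite in sign.

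Leaving out 1 library at a time, the proximal Mtg16-/- comparison called 0 to 2 members, with *Ang4* from -0.083 to 4.78, *Pla2g2a* from -1.85 to 2.85 and *Mptx1* from -1.47 to 5.54. In the distal Mtg16-/- comparison *Reg3b* ran from -1.41 to 2.37, *Reg3g* from -1.22 to 2.07, *Retnlb* from -0.22 to 1.34 and *Slpi* from -3.38 to 0.063. Called members numbered 0 to 2 in T/T proximal crypts, 0 to 6 in WT crypts after DSS and 0 to 1 in T/T crypts after DSS. Members whose effect differed numbered 0 to 2 between DSS and baseline for each allele and 0 to 1 between segments for Mtg16-/-, where *Mptx1* ran from -0.47 to 6.54. With 2 libraries a group in the proximal mutant comparisons, an exact permutation test cannot go below 0.333. The causes of these shifts were not tested.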

Other observations

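The ratio of reads between the paired *Reg3* lectin genes was read in each group, a quantity chosen after the values were seen. Within a library the ratio of *Reg3b* to *Reg3g* needs no scaling. It was 3.10 to 3.74 in WT proximal crypts and 0.788 to 3.17 in WT distal crypts, ranges that overlapped. In distal crypts after DSS it was 2.52 to 4.90 in WT, 3.34 to 4.78 in Mtg16-/- and 3.07 to 6.84 in T/T libraries. In T/T distal crypts it was 0.661 to 1.65, against 2.33 to 2.64 in WT littermates. In tumors *Reg3g* had more reads than *Reg3b* in all 6 libraries, with ratios of 0.252 to 0.405 in T/T and 0.255 to 0.754 in WT. No test was made of these ratios.

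*Pla2g2a* stood far above the rest in single libraries of 3 groups: 5122 in proximal Mtg16-/- replicate 2 (196 in the other), 8144 in distal Mtg16-/- replicate 4 (61.8 to 546 in the others) and 35817 in WT replicate 3 after DSS (2218 and 2238 in the others).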
